A study of Saccharomyces cerevisiae with 15 samples.

Results

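Gene expression in a yeast strain that lacks PMI40 was compared between cultures started with 3 g/L and with 1.5 g/L mannose. The comparison uses the 3 arrays titled with 3 g/L initial mannose and the 3 titled with 1.5 g/L, 6 of the 15 arrays of the series, and all 6 were found by their titles. The strain carries a PMI40 knockout in the CEN.PK113-7A background, and every array of the series, whatever its mannose concentration, comes from this deletion strain. Cultures were aerated batches in mineral medium with 15 g/L glucose beside the mannose, and RNA was taken 6 h after inoculation. The other 9 arrays, at 0.75, 1 and 5 g/L mannose, serve here to estimate the spread between arrays and to place the step from 1.5 to 3 g/L beside the steps below and above it. A parent strain was not analysed here, and the concentrations are those at the start of the culture.

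PMI40 encodes the isomerase that interconverts fructose 6-phosphate and mannose 6-phosphate. Mannose 6-phosphate is the source of GDP-mannose, which the cell uses to build N-linked and O-linked glycans, GPI anchors, mannosylated sphingolipids and the mannan of the cell wall. Without the isomerase the cell depends on mannose from the medium for these products, and mannose 6-phosphate cannot pass into glycolysis by this route. Mannose enters yeast through the same hexose transporters as glucose and is phosphorylated by the hexokinases.

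Each array reported a linear signal for 9335 probe sets, of which 6956 were tested after control probe sets and the dimmest probe sets were left out. Array medians ran from 23.9 to 24.6 for 1.5 g/L and from 23.7 to 25.6 for 3 g/L. The ratio of 3' to 5' signal, a measure of RNA quality, was 1.37 to 1.92 (1.5 g/L) and 1.89 to 2.17 (3 g/L) for ACT1, and 3.89 to 4.38 and 3.69 to 3.98 for SPT15. The a-specific genes MFA1, MFA2, STE2, STE6, BAR1 and AGA2 lay above background on all 6 arrays, and ASG7, the last of the 7 a-specific genes, on the 3 g/L arrays alone. Of the 4 alpha-specific genes, MF(ALPHA)2 lay below background on all 6 arrays, MF(ALPHA)1 above it on all 6 at 19.8 to 26.7, and STE3 and SAG1 above it on all 3 g/L arrays and on part of the 1.5 g/L arrays. Signals at or below 13.5, the 95th percentile of 13 control probe sets for absent targets, are taken as background. PMI40 itself read 252.9, 202.7 and 255.4 on the 1.5 g/L arrays and 214.6, 237.3 and 210.0 on the 3 g/L arrays (log2 change -0.10 ± 0.19, adjusted p = 0.83), and whether its probes lie in the deleted stretch was not analysed here, so these signals do not check the deletion.

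The 2 groups never shared a fluidics run, as inferred from the station and the time of day in the array records. The 1.5 g/L arrays were in 1 run with a 5 g/L array, 3 g/L replicates 2 and 3 were in another run with the other two 5 g/L arrays, and 3 g/L replicate 1 was in a run with the 0.75 g/L arrays. No within-run difference between 3 and 1.5 g/L exists, and the run can be taken out only through the 5 g/L arrays that link the runs. The record of 3 g/L replicate 1 does not note its fluidics protocol as completed. The CreX-3 control signal of this array was 4020.9 against 733.4 and 842.7 on the other 3 g/L arrays, and its mean correlation with them was 0.959. Nothing in the labels states that replicate arrays were from separate cultures, and in the records replicates carry 1 common sample code. The p-values therefore reflect the spread among arrays, which may be technical. Fewer cells of a kind and less RNA per cell cannot be told apart in these values.

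At 3 g/L mannose the genes of the low-affinity hexose transporter HXT1, the dihydroxyacetone kinase DAK2, the vitamin B6 pair SNZ1 and SNO1, the carnitine acetyltransferases YAT1 and YAT2 and the biotin transporter VHT1 were higher than at 1.5 g/L. The genes of the cell wall mannoprotein CWP1, the mitotic cyclin CLB1, the phospholipid methyltransferase OPI3 and the general amino acid permease GAP1 were lower. Of the 6956 probe sets, 285 (4.1%) passed an adjusted p below 0.05 with limma, 178 of them higher at 3 g/L (2.56%) and 107 lower (1.54%), so that 62.5% of the calls were rises (52.4% after quantile normalization). The rises were the larger changes, with a median log2 change of 1.02 in size against 0.73 for the falls. At least 2-fold differences were called for 98 probe sets that rose and 17 that fell. At an unadjusted p below 0.05 in limma lay 1351 of the 6956 probe sets. The median over all tested probe sets was -0.02 on the log2 scale and the median standard error 0.22.

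**Figure D1:**
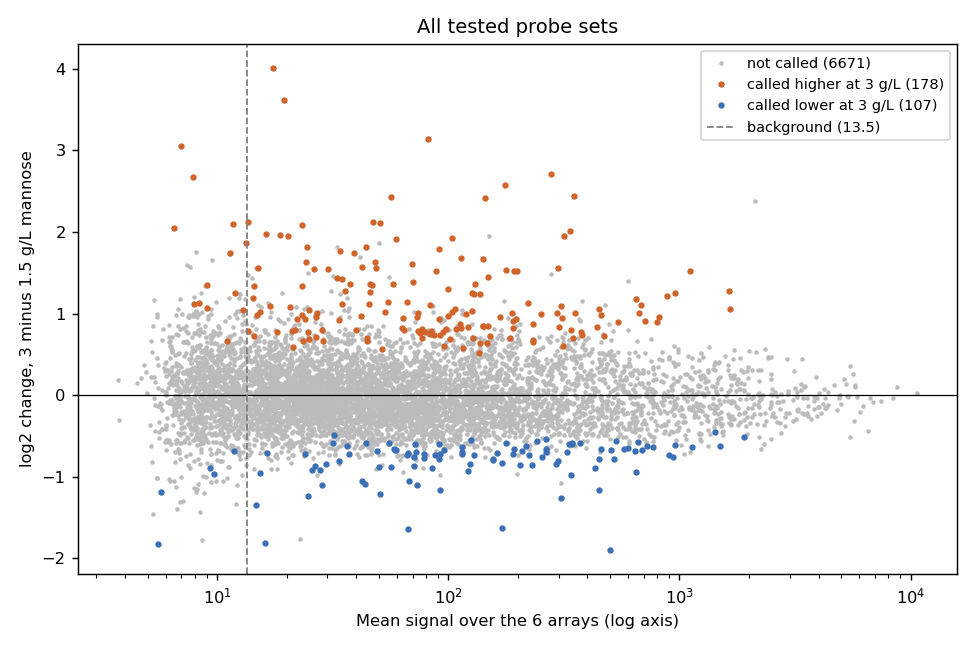
Each point is a tested probe set, with its mean signal over the 6 arrays on a log axis across and its log2 change from 1.5 to 3 g/L mannose up, and the dashed line marks the background signal of 13.5. The 178 called rises reach higher than the 107 called falls reach low, and calls occur over the whole range of signals.

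The signals of the 3 and 3 arrays did not overlap for any of the 285 called probe sets. Separate groups are thus shared by all calls and are no further support for a called gene described below. Among all tested probe sets 10.9% were without overlap and higher, and 12.8% without overlap and lower. With the fluidics run as a fixed block, 3 probe sets were called, the genes UBC11 and SPG4 (both higher, 0.0405 for each) and GND2, which was not called without the block and is named after its values were seen. All 285 kept their direction under that block, at a median of 0.97 of the reported log2 change, while the median standard error rose to 0.40. Leaving out the 5 arrays whose records do not note a completed fluidics protocol (the incomplete records), 91 probe sets were called, 86 of the 285 among them. The direction of the 285 could not change there, since their arrays do not overlap. Leaving out 1 array at a time gave 105 to 195 calls, with 167, 195 and 105 without 1.5 g/L replicate 1, 2 and 3 and 158, 127 and 164 without 3 g/L replicate 1, 2 and 3. In each of these 6 fits 85 of the 285 stayed called, 65 rises and 20 falls.

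**Figure D2:**
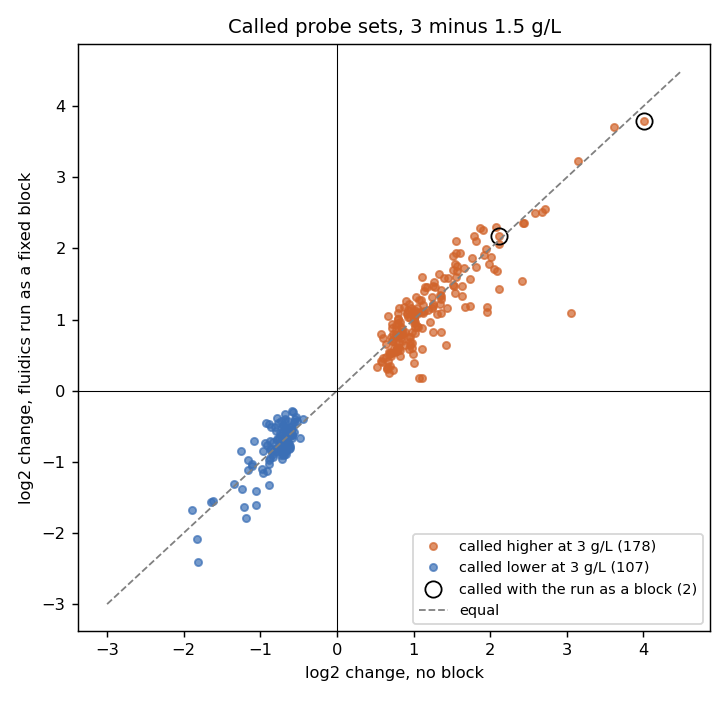
The 285 called probe sets are plotted with the log2 change from 1.5 to 3 g/L as reported across and the log2 change with the fluidics run as a fixed block up, and the dashed line marks equal values. All points lie in the 2 quadrants of equal direction, and circles mark the 2 that passed the test with the block, UBC11 and SPG4.

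By gene, taking probe sets with 1 symbol and the brightest of each gene, 214 of 5219 genes were called (4.1%), 120 higher (2.3%) and 94 lower (1.8%), and the median log2 change was -0.06. The text names 102 called genes, and 44 of them were called in all 6 fits that left out 1 array. A further 58 lost the call in at least 1, and they are marked as such where they are described. A log2 change is followed by its standard error from the fit.

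Among called genes with all arrays above background, the largest rise was that of DAK2, a dihydroxyacetone kinase. It read 19.8, 16.7 and 13.6 on the 1.5 g/L arrays and 122.7, 152.6 and 164.4 on the 3 g/L arrays, 8.81-fold higher (log2 change 3.14 ± 0.35, adjusted p = 0.00022). The lowest 3 g/L array of DAK2 was far above the highest 1.5 g/L array, where the rule for the largest rises required no overlap. For other genes all 1.5 g/L arrays were below background, so only a lower bound can be given and their rises cannot be ranked beside that of DAK2. UBC11, a ubiquitin-conjugating enzyme gene, read 1.4, 0.8 and 3.7 on the 1.5 g/L arrays and 25.7, 35.6 and 37.8 on the 3 g/L arrays, at least 2.41-fold higher (adjusted p = 8.59e-06). GID10, a substrate receptor of the GID ubiquitin ligase, likewise moved from below background (2.2, 1.5 and 7.2) to 29.2, 40.4 and 36.8 at 3 g/L, at least 2.6-fold higher (adjusted p = 0.000249).

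NCA3, a member of the SUN family first linked to the expression of mitochondrial ATP synthase subunits, read 90.9, 137.6 and 101.3 on the 1.5 g/L arrays and 539.5, 576.5 and 656.5 on the 3 g/L arrays, 5.44-fold higher (log2 change 2.44 ± 0.22, adjusted p = 3.09e-05). DIP5, the permease for glutamate and aspartate, read 50.1, 54.3 and 32.5 on the 1.5 g/L arrays and 170.0, 276.5 and 283.4 on the 3 g/L arrays (log2 change 2.41 ± 0.34, adjusted p = 0.00131), and its log2 change was 1.54 ± 0.48 with the run as a block (adjusted p = 0.42). SPG4, named for survival of stationary phase at high temperature, read 15.7, 20.3 and 17.2 on the 1.5 g/L arrays and 65.7, 84.8 and 80.7 on the 3 g/L arrays (log2 change 2.12 ± 0.16, adjusted p = 8.59e-06). The rule for the largest rises took only genes whose arrays do not overlap, so the 2 groups were apart for these 3 genes by that choice. BDS1, an alkyl- and aryl-sulfatase, had 3 probe sets that were all called higher, and the brightest read 11.6, 21.9 and 21.4 on the 1.5 g/L arrays and 92, 99.1 and 91.8 on the 3 g/L arrays (log2 change 2.42 ± 0.39, adjusted p = 0.00312). BAG7, a GTPase-activating protein of Rho1, rose from 1, 4 and 1.1 to 18.4, 10.2 and 12.4 (adjusted p = 0.000567), values that lie partly below background at 3 g/L as well and give no fold.

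Of the 15 largest rises by fitted log2 change, the other 5 held less well when 1 array was left out. They were PUG1, a plasma membrane transporter of protoporphyrin and heme, PRM5, BOP2, YOR338W and SRL4. PRM5, a pheromone-regulated membrane protein, read 21.1, 22.7 and 14 on the 1.5 g/L arrays and 75, 75.5 and 96 on the 3 g/L arrays (log2 change 2.11 ± 0.46, adjusted p = 0.0213). The 1.5 g/L arrays of the other 4 were below background, so they are given as at least 1.5-fold higher for PUG1, 1.34-fold for BOP2, 2.72-fold for YOR338W and 2.13-fold for SRL4. With 1 array left out, the call was kept in 1 of 6 fits for PUG1, PRM5, BOP2 and YOR338W and in 2 for SRL4. Their highest adjusted p-values were 0.143 for PUG1 without 3 g/L replicate 2, 0.132 for BOP2 without 3 g/L replicate 1, and 0.0904, 0.0996 and 0.098 for PRM5, YOR338W and SRL4 without 1.5 g/L replicate 3.

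The largest fall was in CWP1, which encodes a GPI-linked mannoprotein of the cell wall. It read 740.1, 814.7 and 804.9 on the 1.5 g/L arrays and 185.9, 215.7 and 234.2 on the 3 g/L arrays, 3.73-fold lower at 3 g/L (log2 change -1.90 ± 0.14, adjusted p = 8.59e-06), and its log2 change was -1.67 ± 0.26 with the run as a block (adjusted p = 0.061). WSC4, a member of the WSC family of membrane sensors, fell from 266.7, 226.3 and 277.7 to 79, 80.4 and 90.4 (log2 change -1.62 ± 0.15, adjusted p = 5.89e-05). CLB1, a B-type cyclin of mitosis, fell from 120.6, 83.5 and 99.8 to 27.4, 30.5 and 39.4 (log2 change -1.64 ± 0.17, adjusted p = 0.000112). For these 3 genes every 3 g/L array lay well under the lowest 1.5 g/L array, where the rule for the largest falls required no overlap. COX26, a cytochrome c oxidase subunit, read 25.2, 27.5 and 21.4 on the 1.5 g/L arrays and 10.9, 5.2 and 6.1 on the 3 g/L arrays, so that the 3 g/L arrays lay below background and the fall was at least 1.82-fold (adjusted p = 0.00267).

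OPI3, which methylates phosphatidylethanolamine in the synthesis of phosphatidylcholine, read 653.0, 702.6 and 510.3 on the 1.5 g/L arrays and 272.2, 307.4 and 250.9 on the 3 g/L arrays (log2 change -1.16 ± 0.20, adjusted p = 0.00557). PDC5, a minor pyruvate decarboxylase, fell from 93.7, 95.1 and 111.4 to 49.8, 47.5 and 42.2 (log2 change -1.10 ± 0.15, adjusted p = 0.00131). CMC1, a mitochondrial intermembrane space protein of cytochrome c oxidase assembly, fell from 77.5, 87.7 and 110.6 to 40.6, 46.4 and 44.3 (log2 change -1.06 ± 0.19, adjusted p = 0.00717). The groups did not overlap for any of these, which the rule for the largest falls required, and all 3 were called in each fit without 1 array. EEB1, which makes medium-chain ethyl esters, fell by 1.06 on the log2 scale (adjusted p = 0.0239), and with 1 array left out its call was kept in 1 of 6 fits (adjusted p up to 0.098, without 1.5 g/L replicate 3). STF2, a stabilising factor of the ATP synthase, fell by 0.98 (adjusted p = 0.022) and was kept in 1 of 6 (up to 0.0775, without 1.5 g/L replicate 3). The change of EEB1 was -1.61 ± 0.43 with the run as a block.

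**Figure D3:**
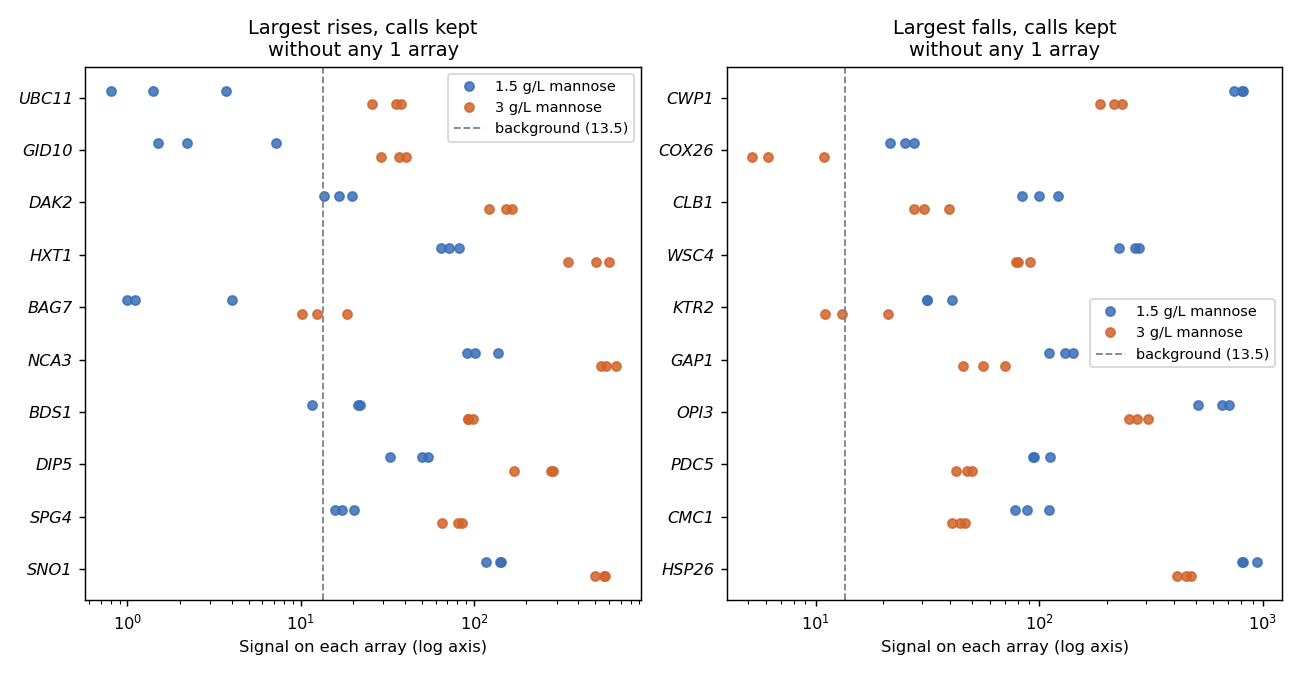
Points give the signal on each of the 3 arrays of each concentration, on a log axis, for the genes among the 15 largest rises and the 15 largest falls that were called in all 6 fits without 1 array, and the dashed line is the background signal of 13.5. Only genes whose arrays do not overlap were chosen, so the 2 concentrations are separate in each of the 20 rows by that choice. For UBC11, GID10 and BAG7 the 1.5 g/L arrays are below background.

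Among genes of hexose transport, 2 of 10 tested rose and 2 fell, where 2.3% and 1.8% of all genes did. HXT1, the low-affinity transporter induced by high glucose, read 81.7, 71.2 and 64.6 on the 1.5 g/L arrays and 346.3, 506.4 and 604.3 on the 3 g/L arrays, 6.56-fold higher (log2 change 2.71 ± 0.27, adjusted p = 9.12e-05). With the run as a block the change of HXT1 was 2.56 ± 0.47 (adjusted p = 0.0956). HXT5, a transporter known from slow growth and starvation, rose from 22.1, 19.9 and 20.2 to 41.4, 47.6 and 63.3 (log2 change 1.27 ± 0.16, adjusted p = 0.000628). The high-affinity transporter genes HXT7 and HXT6, repressed by high glucose, were lower, HXT7 with 621.0, 515.7 and 535.0 on the 1.5 g/L arrays and 259.2, 315.9 and 327.9 on the 3 g/L arrays (log2 change -0.89 ± 0.17, adjusted p = 0.00927). HXT6 fell by 0.78 on the log2 scale (adjusted p = 0.0404). These 2 genes are near-identical and their probe sets are of the kind shared within a family, so their signals cannot be assigned to either alone. With the run as a block the changes were -0.47 ± 0.29 for HXT7 and -0.38 ± 0.34 for HXT6. The HXT6 call was lost in each of the 6 fits without 1 array (adjusted p up to 0.134, without 3 g/L replicate 1).

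Of the enzymes that phosphorylate hexoses, HXK1, hexokinase 1, read 527.8, 379.5 and 368.8 on the 1.5 g/L arrays and 102.5, 203.6 and 259.1 on the 3 g/L arrays (log2 change -1.26 ± 0.28, adjusted p = 0.0229). EMI2, a paralog of the glucokinase gene, read 212.3, 197.9 and 177.3 on the 1.5 g/L arrays and 84, 112.4 and 150.7 on the 3 g/L arrays (log2 change -0.80 ± 0.19, adjusted p = 0.0323). Both were lowest on 3 g/L replicate 1, and without it neither was called. In the fits without 1 array HXK1 was called in 3 of 6 (adjusted p up to 0.0818, without 1.5 g/L replicate 1) and EMI2 in 1 (up to 0.0961, without 3 g/L replicate 1). GLK1, the glucokinase gene, did not pass, with 1330.6, 1480.2 and 1101.8 on the 1.5 g/L arrays and 625.8, 836.4 and 931.6 on the 3 g/L arrays (log2 change -0.72 ± 0.19, adjusted p = 0.0529), nor did HXK2, hexokinase 2 (log2 change -0.50 ± 0.15, adjusted p = 0.0787). HXK1 and EMI2 were the 2 called of 20 genes of glycolysis, both lower, where 1.8% of all genes were. Lower without overlap were 6 of the 20, where 14.8% of all genes were. Of 33 genes of glucose signalling 2 passed the test (6.06%, against 4.1% of all genes). SKS1, a protein kinase tied to growth on low glucose, read 60.8, 75.9 and 73.6 on the 1.5 g/L arrays and 127.7, 111.7 and 119.0 on the 3 g/L arrays (log2 change 0.77 ± 0.17, adjusted p = 0.0242), so that it was higher at 3 g/L. The other was SIP4, an activator of gluconeogenic genes (adjusted p = 0.0498), but its signals of 5.3, 6.8 and 3.3 on the 1.5 g/L arrays and 11.8, 11.8 and 8.6 on the 3 g/L arrays all lay below background, so no direction or size is given for it. With 1 array left out each kept its call in 1 fit, with adjusted p up to 0.0863 for SKS1 without 1.5 g/L replicate 1 and 0.178 for SIP4 without 1.5 g/L replicate 3.

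In the pentose phosphate pathway the called genes went in both directions, 2 of 14 higher and 3 lower, where 2.3% and 1.8% of all genes were. TKL2, the minor transketolase, read 38.7, 50.9 and 32.3 on the 1.5 g/L arrays and 102.7, 169.3 and 151.3 on the 3 g/L arrays (log2 change 1.79 ± 0.29, adjusted p = 0.00312), and its other two probe sets were also called higher. NQM1, a transaldolase, rose from 17.9, 15.2 and 16.3 to 27.5, 29.2 and 38.4 (log2 change 0.93 ± 0.20, adjusted p = 0.0223). In the oxidative branch SOL4, a 6-phosphogluconolactonase, fell from 544.1, 558.3 and 605.3 to 304.3, 358.6 and 332.5 (log2 change -0.78 ± 0.14, adjusted p = 0.00732). SOL3, its paralog, fell by 0.81 on the log2 scale (adjusted p = 0.0187) while GND1, of the main phosphogluconate dehydrogenase, fell by 0.64 (adjusted p = 0.019). TKL2 and SOL4 were called in all 6 fits without 1 array, SOL3 in 3 (up to 0.0704, without 1.5 g/L replicate 3), GND1 in 2 (up to 0.08, without 1.5 g/L replicate 3) and NQM1 in 2 (up to 0.0819, without 3 g/L replicate 3). With the run as a block SOL3 was at -0.51 ± 0.30. The median of the list was -0.02, and -0.34 with the run as a block. GND2 was the only member called in that fit, where it was lower.

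Genes of trehalose and glycogen had a median log2 change of -0.27 over 20 tested, against -0.06 for all genes, and 1 was called (4.1% of all genes). The median was -0.15 with the run as a block and also without 3 g/L replicate 1. TSL1, a subunit of trehalose 6-phosphate synthase, read 793.0, 657.2 and 660.2 on the 1.5 g/L arrays and 375.6, 464.3 and 494.4 on the 3 g/L arrays (log2 change -0.67 ± 0.14, adjusted p = 0.0193), a call kept in 2 of 6 fits without 1 array (adjusted p up to 0.072, without 1.5 g/L replicate 1). GLC3, the glycogen branching enzyme gene, did not pass (log2 change -0.61 ± 0.21, adjusted p = 0.121). Of 11 genes of glycerol and dihydroxyacetone metabolism DAK2 was the 1 called.

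**Figure D4:**
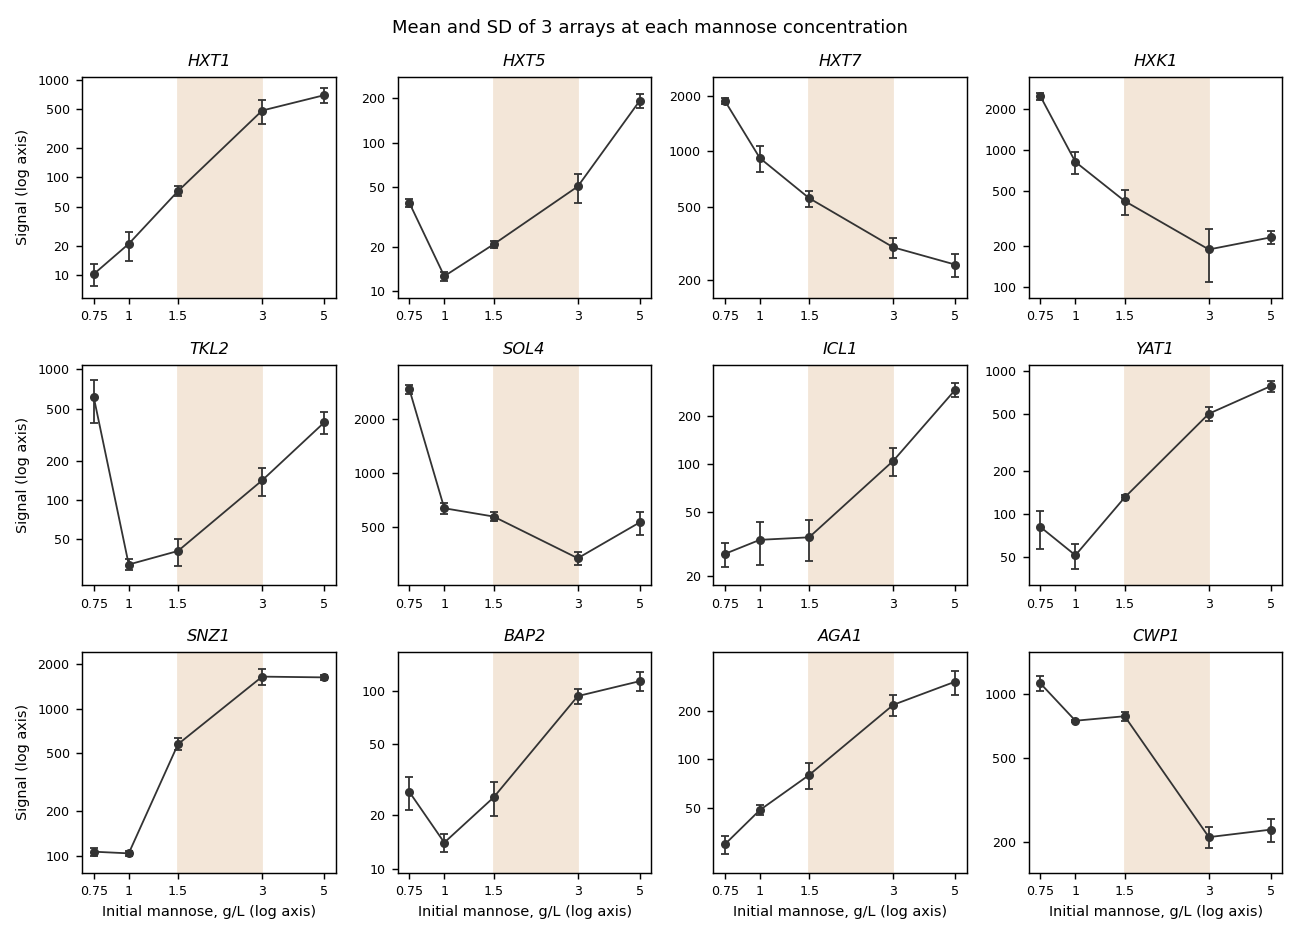
Points are means of 3 arrays and bars their SD at each of the 5 initial mannose concentrations, both axes on a log scale, for 12 named genes, with the step from 1.5 to 3 g/L shaded. HXT1 and AGA1 rise over all steps and HXT7 falls over all, while TKL2 and SOL4 are highest at 0.75 g/L and CWP1 drops mainly within the shaded step.

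The carnitine acetyltransferase genes YAT1 and YAT2, whose products move acetyl groups between carnitine and coenzyme A, both rose. YAT1 read 135.6, 128.6 and 127.3 on the 1.5 g/L arrays and 471.1, 476.8 and 567.4 on the 3 g/L arrays, 3.86-fold higher (log2 change 1.95 ± 0.21, adjusted p = 0.00016). YAT2 read 47.4, 48.2 and 35.3 on the 1.5 g/L arrays and 158.4, 152.0 and 181.5 on the 3 g/L arrays, 3.78-fold higher (log2 change 1.92 ± 0.19, adjusted p = 9.12e-05). The groups were far apart for both, and no called probe set had groups that overlap. CRC1, the mitochondrial carnitine carrier, rose by 0.96 (adjusted p = 0.0309), with the call kept in 1 of 6 fits without 1 array (adjusted p up to 0.0844, without 3 g/L replicate 1). These 3 were the calls among 18 tested genes of fatty acid oxidation and carnitine, whose median was 0.14, and 2.3% of all genes rose. Of 16 genes of ethanol and acetate none rose and 1 fell, PDC5 (1.8% of all genes fell). At an unadjusted p below 0.05 in limma were 4 of the 16, beside 1351 of all 6956 probe sets.

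ICL1, the isocitrate lyase of the glyoxylate cycle, read 46.1, 27.3 and 31.2 on the 1.5 g/L arrays and 86, 101.7 and 127.6 on the 3 g/L arrays (log2 change 1.61 ± 0.25, adjusted p = 0.00215). The lowest 3 g/L array lay well above the highest 1.5 g/L array. IDP3, the peroxisomal isocitrate dehydrogenase, also passed (adjusted p = 0.0183), with 8.2, 8.2 and 9.1 on the 1.5 g/L arrays and 15.2, 12.5 and 12.7 on the 3 g/L arrays, mostly below background, so no fold is given. With 1 array left out, the IDP3 call was kept in 3 of 6 fits (up to 0.0597, without 3 g/L replicate 1). IDP2, the cytosolic isocitrate dehydrogenase, did not pass (log2 change 0.76 ± 0.22, adjusted p = 0.0682), nor did PCK1, phosphoenolpyruvate carboxykinase (log2 change 0.62 ± 0.21, adjusted p = 0.12). Over 12 genes of the glyoxylate cycle and gluconeogenesis 5 were higher without overlap (9.31% of all genes), and ICL1 and IDP3 passed the test. The median was 0.46 as reported, but 0.03 with a floor at background (lower signals set to it) and 0.01 with a filter at the median signal, which left 5 of the genes.

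Of 23 genes of the tricarboxylic acid cycle and pyruvate carboxylation, 3 rose and none fell, where 2.3% and 1.8% of all genes did. FUM1, fumarase, read 433.1, 645.1 and 597.5 on the 1.5 g/L arrays and 1119.0, 1038.7 and 1052.7 on the 3 g/L arrays (log2 change 0.96 ± 0.18, adjusted p = 0.00991). CIT3, a mitochondrial citrate and methylcitrate synthase, was below background at 1.5 g/L (6, 7 and 8.2) and at 18.2, 14 and 18.4 at 3 g/L, at least 1.24-fold higher (adjusted p = 0.0026). PYC2, a pyruvate carboxylase, rose by 0.72 (adjusted p = 0.0475), a call lost in each of the 6 fits without 1 array (up to 0.117, without 1.5 g/L replicate 2), and its paralog PYC1 did not pass (log2 change 0.61 ± 0.19, adjusted p = 0.097). Of the respiratory chain and ATP synthase, 3 of 46 genes fell and none rose, against the same shares. Beside COX26 and STF2, described above, this was COX5B, the low-oxygen form of a cytochrome c oxidase subunit, with 41.9, 30 and 36.9 on the 1.5 g/L arrays and 18.4, 24.7 and 15.2 on the 3 g/L arrays (log2 change -0.92 ± 0.20, adjusted p = 0.0204), kept in 2 of 6 fits without 1 array (up to 0.0754, without 1.5 g/L replicate 1).

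Of 37 genes of GDP-mannose supply and mannosyl transfer, 1 was called (2.7%, against 4.1% of all genes), and the median was -0.14. KTR2, a Golgi mannosyltransferase, fell from 31.3, 31.3 and 40.6 to 11, 13.1 and 21.1 (log2 change -1.24 ± 0.22, adjusted p = 0.00629). SEC53, the phosphomannomutase, read 1025.5, 919.7 and 1031.1 on the 1.5 g/L arrays and 753.9, 687.2 and 758.6 on the 3 g/L arrays (log2 change -0.44 ± 0.13, adjusted p = 0.0877). PSA1, which makes GDP-mannose, read 1171.9, 1251.4 and 1319.7 on the 1.5 g/L arrays and 950.9, 923.3 and 898.3 on the 3 g/L arrays (log2 change -0.43 ± 0.15, adjusted p = 0.119). Both were lower on every 3 g/L array without passing the test. Of the 37 genes 8 were lower without overlap and 2 higher, where 14.8% and 9.31% of all genes were. None of 29 genes of N-glycosylation and none of 23 genes of GPI anchors was called with limma, with medians of -0.17 and -0.22. They held 5 and 2 genes at an unadjusted p below 0.05, beside 1351 of all 6956 probe sets. The GPI anchor median was -0.08 without 3 g/L replicate 1, -0.11 without 1.5 g/L replicate 1 and -0.14 without 1.5 g/L replicate 2. The nearest were SWP1, an oligosaccharyltransferase subunit (log2 change -0.49 ± 0.13, adjusted p = 0.0503), and MCD4, of GPI anchor synthesis (log2 change -0.58 ± 0.19, adjusted p = 0.107).

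Among 32 genes of cell wall proteins 4 rose and 1, CWP1, fell, where 2.3% and 1.8% of all genes did. AGA1, the anchor subunit of a-agglutinin, read 92.2, 64.3 and 83.8 on the 1.5 g/L arrays and 189.0, 212.0 and 249.9 on the 3 g/L arrays (log2 change 1.44 ± 0.18, adjusted p = 0.000618). AGA2, the adhesion subunit, read 123.6, 92.1 and 128.0 on the 1.5 g/L arrays and 219.0, 224.4 and 219.5 on the 3 g/L arrays (log2 change 0.96 ± 0.15, adjusted p = 0.00235). TIP1, a mannoprotein of the wall, read 453.4, 437.1 and 311.1 on the 1.5 g/L arrays and 782.2, 939.4 and 964.1 on the 3 g/L arrays (log2 change 1.17 ± 0.17, adjusted p = 0.00156). All 3 were called in every fit without 1 array. FIT2, a wall mannoprotein that retains siderophore iron, rose by 0.73 (adjusted p = 0.0421) at signals near background, kept in 1 of 6 fits (up to 0.144, without 1.5 g/L replicate 3).

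Of 37 genes of glucan and chitin, 3 rose and 1 fell, where 2.3% and 1.8% of all genes did. NCA3, given above, was among the risers. FKS3, a homolog of the glucan synthase genes, rose from 15.5, 15.2 and 9.5 to 35.4, 31.8 and 32.1 on 1 probe set (log2 change 1.34 ± 0.23, adjusted p = 0.00446), and its other probe set was not called. CHS3, the chitin synthase of the bud scar ring and lateral wall, read 59.2, 82.9 and 98.4 on the 1.5 g/L arrays and 140.9, 147.2 and 144.2 on the 3 g/L arrays (log2 change 0.88 ± 0.22, adjusted p = 0.0404). GAS5, a glucan-elongating enzyme, fell by 0.57 (adjusted p = 0.0358) and FKS1, the main glucan synthase, did not pass (log2 change -0.45 ± 0.12, adjusted p = 0.0549). With 1 array left out the CHS3 call was kept in 1 of 6 fits (up to 0.135, without 1.5 g/L replicate 1) and the GAS5 call in none (up to 0.121, without 1.5 g/L replicate 3). GAS5 was at -0.30 ± 0.25 with the run as a block. In the wall sensors and integrity pathway WSC4 fell and PRM5 rose, of 24 tested.

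Genes of mating were higher at 3 g/L where they were called. Of 30 genes of the pheromone response and of mating fusion 5 rose and none fell, where 2.3% and 1.8% of all genes did. The median was 0.31, and 0.20 with the run as a block, 0.15 without 3 g/L replicate 2 and 0.01 with a floor at 32. PRM1, which acts in plasma membrane fusion of mating cells, read 20.2, 16.1 and 17.4 on the 1.5 g/L arrays and 53.3, 43 and 48.4 on the 3 g/L arrays (log2 change 1.43 ± 0.22, adjusted p = 0.00197). FUS1, another cell fusion gene, was below background at 1.5 g/L (8.4, 8.3 and 9.4) and at 21.5, 19.3 and 18.9 at 3 g/L, at least 1.47-fold higher (adjusted p = 0.00684). PRM10, a pheromone-regulated membrane protein gene, read 69.8, 90.1 and 48.4 on the 1.5 g/L arrays and 109.5, 150.1 and 153.2 on the 3 g/L arrays (log2 change 1.02 ± 0.23, adjusted p = 0.0244). AGA1 and PRM5, described above, were the other two. Of the 7 a-specific genes AGA2 and ASG7 were called, ASG7 from below background (6, 4.4 and 5.3) to 20.8, 15.2 and 16.4, at least 1.28-fold (adjusted p = 0.0204).

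The a-factor genes MFA1 and MFA2 did not pass and had opposite signs, MFA1 with 839.9, 1016.7 and 1220.5 on the 1.5 g/L arrays and 1229.6, 1626.0 and 1535.3 on the 3 g/L arrays (log2 change 0.52 ± 0.20, adjusted p = 0.173) and MFA2 with 1502.8, 1507.0 and 1784.6 on the 1.5 g/L arrays and 1200.4, 1362.8 and 1102.3 on the 3 g/L arrays (log2 change -0.39 ± 0.15, adjusted p = 0.17). The alpha-specific genes MF(ALPHA)1, STE3 and SAG1 read 11.6 to 26.7 over the 6 arrays and none was called with limma, with 0 of 4 alpha-specific genes at an unadjusted p below 0.05. PRM1 and FUS1 were called in all 6 fits without 1 array. PRM10 was called in 2 of them (up to 0.103, without 1.5 g/L replicate 3) and ASG7 in 1 (up to 0.0754, without 3 g/L replicate 1).

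Of 18 genes of vitamin B6 and thiamine 3 rose and none fell, where 2.3% and 1.8% of all genes did. SNZ1 and SNO1 encode the synthase and glutaminase parts of the enzyme that makes pyridoxal phosphate, the active form of vitamin B6. SNZ1 read 614.0, 592.5 and 512.1 on the 1.5 g/L arrays and 1897.7, 1524.4 and 1531.2 on the 3 g/L arrays, 2.88-fold higher (log2 change 1.52 ± 0.14, adjusted p = 3.38e-05). SNO1 read 116.7, 141.8 and 143.7 on the 1.5 g/L arrays and 559.5, 566.2 and 496.5 on the 3 g/L arrays, 4.04-fold higher (log2 change 2.02 ± 0.18, adjusted p = 3.09e-05). The arrays of each group lay close together and the 2 groups far apart, and no called probe set had groups that overlap. THI4, which makes the thiazole part of thiamine, rose from 25.1, 21.2 and 19 to 36.9, 53.2 and 53 (log2 change 1.12 ± 0.22, adjusted p = 0.0137), a call kept in 3 of 6 fits without 1 array (up to 0.0657, without 1.5 g/L replicate 3). The median of the list was 0.23, and 0.11 without 1.5 g/L replicate 3.

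Of 32 genes of NAD, biotin, folate and riboflavin metabolism 5 rose and none fell, where 2.3% and 1.8% of all genes did, and the median was 0.01. Biotin genes made up most of these. VHT1, the biotin transporter of the plasma membrane, read 171.5, 147.4 and 135.8 on the 1.5 g/L arrays and 424.0, 462.0 and 448.0 on the 3 g/L arrays, 2.95-fold higher (log2 change 1.56 ± 0.16, adjusted p = 0.000112). BIO3, an aminotransferase of biotin synthesis, read 80.8, 71.8 and 72.4 on the 1.5 g/L arrays and 149.2, 201.7 and 186.9 on the 3 g/L arrays (log2 change 1.25 ± 0.18, adjusted p = 0.00141). BIO5, the transporter of biotin precursors, read 16.4, 10 and 9.7 on the 1.5 g/L arrays and 42.3, 38 and 29.6 on the 3 g/L arrays (log2 change 1.63 ± 0.31, adjusted p = 0.0109). All 3 g/L arrays were above all 1.5 g/L arrays for each, as for every called rise. BIO4, dethiobiotin synthetase, rose by 0.75 (adjusted p = 0.0404), and RIB5, riboflavin synthase, read 109.3, 118.1 and 116.9 on the 1.5 g/L arrays and 188.8, 185.1 and 193.0 on the 3 g/L arrays (log2 change 0.72 ± 0.13, adjusted p = 0.00628). VHT1, BIO3 and RIB5 were called in all 6 fits without 1 array, BIO5 in 5 (adjusted p 0.0587 without 1.5 g/L replicate 3) and BIO4 in none (up to 0.145, without 1.5 g/L replicate 3).

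Most genes of amino acid synthesis had positive log2 changes, 58 of 69 tested. Of these genes 5 rose and none fell, 29 were higher without overlap and none lower without overlap, against 9.31% and 14.8% of all genes, and the median was 0.30. The median was 0.36 with the run as a block and 0.32 without the incomplete records. LEU4, the first enzyme of leucine synthesis, read 719.8, 1453.7 and 798.4 on the 1.5 g/L arrays and 2251.7, 2298.1 and 2318.8 on the 3 g/L arrays (log2 change 1.28 ± 0.27, adjusted p = 0.0174). ARO4, an entry enzyme of aromatic amino acid synthesis, read 516.7, 553.7 and 418.6 on the 1.5 g/L arrays and 952.9, 971.9 and 856.7 on the 3 g/L arrays (log2 change 0.91 ± 0.24, adjusted p = 0.0486). The 3 g/L arrays were above the 1.5 g/L arrays for both, although LEU4 replicate 2 at 1.5 g/L was well above the other two. ILV1, threonine deaminase, rose by 0.70 (adjusted p = 0.0318), ORT1, the mitochondrial ornithine transporter, by 0.81 (adjusted p = 0.0458) and GLY1, threonine aldolase, by 0.60 (adjusted p = 0.0421). None of the 5 was called in every fit without 1 array: LEU4 in 2 (up to 0.0738, without 1.5 g/L replicate 3), ILV1 in 2 (up to 0.124, without 1.5 g/L replicate 3), ORT1 in 1 (up to 0.152, without 1.5 g/L replicate 3), ARO4 in 0 (up to 0.163, without 1.5 g/L replicate 3) and GLY1 in 0 (up to 0.157, without 1.5 g/L replicate 3).

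Of 43 genes of nitrogen use and its repression 3 rose and 4 fell, where 2.3% and 1.8% of all genes did. Those that rose were the amino acid permease genes BAP2, BAP3 and DIP5, and amino acid permeases were not all higher, since GAP1 fell. BAP2, a permease of branched-chain amino acids, read 25.6, 30.3 and 19.4 on the 1.5 g/L arrays and 84.3, 102.3 and 92.7 on the 3 g/L arrays, 3.76-fold higher (log2 change 1.91 ± 0.20, adjusted p = 0.000112). BAP3, its paralog, read 57.5, 47.6 and 51.9 on the 1.5 g/L arrays and 92.1, 110.1 and 139.7 on the 3 g/L arrays (log2 change 1.11 ± 0.23, adjusted p = 0.0171). DIP5 was given above. GAP1, the general amino acid permease, read 141.5, 110.3 and 130.3 on the 1.5 g/L arrays and 45.6, 70.5 and 56.1 on the 3 g/L arrays (log2 change -1.17 ± 0.22, adjusted p = 0.0101). DAL3, of allantoin breakdown, read 86.7, 87.3 and 95.2 on the 1.5 g/L arrays and 46.9, 56.1 and 56 on the 3 g/L arrays (log2 change -0.76 ± 0.17, adjusted p = 0.022). DAL1, allantoinase, and DAL4, the allantoin permease, lay below background on the 3 g/L arrays and were at least 1.52-fold and 1.48-fold lower (adjusted p = 0.0392 and 0.0404). BAP2, DIP5 and GAP1 were called in all 6 fits without 1 array, BAP3 in 2 (up to 0.0644, without 3 g/L replicate 3), DAL3 in 1 (up to 0.0825, without 1.5 g/L replicate 3), DAL1 in 1 (up to 0.113, without 3 g/L replicate 1) and DAL4 in 0 (up to 0.128, without 3 g/L replicate 1).

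Calls in further lists were few. SUL1, a sulfate permease, read 26.7, 32.1 and 22.1 on the 1.5 g/L arrays and 52.7, 68.2 and 72.4 on the 3 g/L arrays (log2 change 1.26 ± 0.20, adjusted p = 0.00234). It was the 1 call among 33 genes of sulfur and methionine (3.03%), near the 2.3% of all genes that rose. ARN1, a siderophore transporter, read 19.2, 17.2 and 20.1 on the 1.5 g/L arrays and 45, 51.5 and 55.1 on the 3 g/L arrays (log2 change 1.42 ± 0.26, adjusted p = 0.00686), and its change was 0.65 ± 0.40 with the run as a block. ARN1 and FIT2, described above, were the 2 called of 20 genes of iron uptake, both higher, where 2.3% of all genes were. SUL1 and ARN1 were called in all 6 fits without 1 array. GCV2, of the glycine cleavage system, rose by 0.80 (adjusted p = 0.0233). VTC1, of vacuolar polyphosphate, fell by 0.59 (adjusted p = 0.0353). TPO4, a polyamine exporter, fell by 0.73 (adjusted p = 0.0265). PBI2, an inhibitor of vacuolar proteinase B, read 370.5, 392.1 and 451.5 on the 1.5 g/L arrays and 235.7, 240.0 and 274.8 on the 3 g/L arrays (log2 change -0.69 ± 0.14, adjusted p = 0.0153). Fits without 1 array kept GCV2 in 2 (up to 0.0847, without 3 g/L replicate 3), VTC1 in 0 (up to 0.102, without 1.5 g/L replicate 3), TPO4 in 1 (up to 0.0892, without 1.5 g/L replicate 1) and PBI2 in 4 (up to 0.0697, without 1.5 g/L replicate 3).

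Most cell cycle genes had negative log2 changes that did not pass the test. Of 31 cyclins and cell cycle genes CLB1 and YHP1, a repressor of cell cycle genes, were called, both lower, where 1.8% of all genes were. Negative log2 changes were found for 28, with a median of -0.34 (-0.22 without 3 g/L replicate 1) against -0.06 for all genes. This was not particular to the cell cycle, since 67 of 80 cytosolic ribosomal protein genes and 24 of 28 genes of fatty acid and phospholipid synthesis were also negative. YHP1 read 45.4, 39.5 and 53.7 on the 1.5 g/L arrays and 30.4, 22.9 and 31 on the 3 g/L arrays (log2 change -0.72 ± 0.18, adjusted p = 0.0442), a call kept in 1 of 6 fits without 1 array (up to 0.159, without 1.5 g/L replicate 3). PCL1, a G1 cyclin, did not pass (log2 change -0.64 ± 0.18, adjusted p = 0.0633), nor did SWI5, a transcription factor of late mitosis (log2 change -0.70 ± 0.26, adjusted p = 0.144). Over 30 genes of DNA replication the median was -0.29 and none was called with limma. Of them 10 had an unadjusted p below 0.05, as did 1351 of all 6956 probe sets. After quantile normalization 5 of the 30 were called, all lower. The median was -0.17 without 3 g/L replicate 1. RNR1, ribonucleotide reductase, read 347.7, 347.5 and 298.5 on the 1.5 g/L arrays and 144.2, 209.7 and 272.2 on the 3 g/L arrays (log2 change -0.71 ± 0.20, adjusted p = 0.0697). CDC21, thymidylate synthase, read 45.5, 52.3 and 45.3 on the 1.5 g/L arrays and 28.3, 28.6 and 34.9 on the 3 g/L arrays (log2 change -0.64 ± 0.18, adjusted p = 0.0616). CDC45, a part of the replicative helicase, read 40.6, 35 and 42.7 on the 1.5 g/L arrays and 20.5, 27.3 and 27.1 on the 3 g/L arrays (log2 change -0.67 ± 0.20, adjusted p = 0.0739). Each was lower on all 3 g/L arrays, and RNR1 was lowest on 3 g/L replicate 1, without which its change was -0.47. Of the 30 genes 8 were lower without overlap and 1 higher, where 14.8% and 9.31% of all genes were. With the run as a block the changes were -0.38 ± 0.31 for RNR1 and -0.42 ± 0.36 for CDC45.

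Mitochondrial ribosomal protein genes had a median log2 change of -0.34, with 61 of 70 negative, 5 called lower and none higher (1.8% and 2.3% of all genes). The median was -0.34 with the run as a block and -0.23 without the incomplete records, and 30 of the 70 were lower without overlap (14.8% of all genes). MRPL31 read 97.3, 116.0 and 118.8 on the 1.5 g/L arrays and 64.6, 57.4 and 56.7 on the 3 g/L arrays (log2 change -0.89 ± 0.19, adjusted p = 0.019). MRPL39 read 782.9, 685.2 and 732.4 on the 1.5 g/L arrays and 406.5, 543.6 and 461.2 on the 3 g/L arrays (log2 change -0.65 ± 0.14, adjusted p = 0.0183). Both encode proteins of the large mitochondrial subunit. MRPL13, MRPL37 and MRPS12 fell by 0.73, 0.73 and 0.60 on the log2 scale (adjusted p = 0.0356, 0.0394 and 0.0356). Fits without 1 array kept MRPL31 in 2 (up to 0.0738, without 1.5 g/L replicate 3), MRPL39 in 2 (up to 0.0644, without 1.5 g/L replicate 1), MRPL13 in 1 (up to 0.134, without 1.5 g/L replicate 3), MRPL37 in 1 (up to 0.123, without 3 g/L replicate 1) and MRPS12 in 0 (up to 0.111, without 1.5 g/L replicate 3). Cytosolic ribosomal protein genes, 80 tested, had a median of -0.18 and no calls with limma. Of these 13 had an unadjusted p below 0.05, as did 1351 of all 6956 probe sets. RPS22B, the nearest, read 1157.3, 1222.3 and 1294.3 on the 1.5 g/L arrays and 861.7, 895.2 and 669.6 on the 3 g/L arrays (log2 change -0.61 ± 0.16, adjusted p = 0.0522).

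None of 50 genes of the small-subunit processome, 60 of large-subunit assembly, 39 of RNA polymerases I and III and 37 of the proteasome was called with limma, with medians of 0.03, -0.04, -0.11 and -0.04. At an unadjusted p below 0.05 they held 2, 4, 2 and 5 genes, beside 1351 of all 6956 probe sets. Of 50 translation factors and tRNA synthetases 2 rose (2.3% of all genes did). YHR020W, a prolyl-tRNA synthetase, read 300.4, 261.6 and 268.5 on the 1.5 g/L arrays and 431.3, 549.7 and 445.0 on the 3 g/L arrays (log2 change 0.77 ± 0.17, adjusted p = 0.0231). SUP35, the release factor eRF3, read 68.8, 118.6 and 56.9 on the 1.5 g/L arrays and 118.8, 187.3 and 273.1 on the 3 g/L arrays (log2 change 1.24 ± 0.32, adjusted p = 0.0447). The fits without 1 array kept YHR020W in 2 (up to 0.0913, without 3 g/L replicate 2) and SUP35 in 2 (up to 0.163, without 1.5 g/L replicate 3).

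In the lists of sphingolipids, of fatty acid and phospholipid synthesis and of ergosterol, the called genes were all lower. Of 24 genes of sphingolipids 3 fell and none rose, where 1.8% and 2.3% of all genes did. The median was -0.30, and -0.06 with the run as a block and -0.13 without 3 g/L replicate 1. TSC10, which makes the long-chain base, read 166.4, 146.4 and 164.0 on the 1.5 g/L arrays and 69.8, 90.2 and 91.9 on the 3 g/L arrays (log2 change -0.93 ± 0.16, adjusted p = 0.004), and its change was -0.45 ± 0.24 with the run as a block. LIP1, a ceramide synthase subunit, read 807.0, 782.8 and 791.5 on the 1.5 g/L arrays and 435.5, 559.6 and 490.7 on the 3 g/L arrays (log2 change -0.69 ± 0.15, adjusted p = 0.0195). Both groups were well apart for these 2 genes. YDC1, a dihydroceramidase, fell by 0.54 (adjusted p = 0.0498). OPI3 was the 1 called of 28 genes of fatty acid and phospholipid synthesis, and CYB5, cytochrome b5, the 1 of 31 of ergosterol synthesis (log2 change -0.58 ± 0.14, adjusted p = 0.0358). TSC10 was called in all 6 fits without 1 array, LIP1 in 2 (up to 0.0657, without 1.5 g/L replicate 3), YDC1 in 0 (up to 0.161, without 1.5 g/L replicate 3) and CYB5 in 1 (up to 0.125, without 1.5 g/L replicate 3).

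HSP26, a small heat shock protein, read 805.9, 812.1 and 942.0 on the 1.5 g/L arrays and 410.5, 451.2 and 475.3 on the 3 g/L arrays (log2 change -0.94 ± 0.14, adjusted p = 0.00187). HSP42, another small heat shock protein, read 195.4, 329.3 and 191.1 on the 1.5 g/L arrays and 371.6, 519.4 and 521.3 on the 3 g/L arrays (log2 change 1.01 ± 0.22, adjusted p = 0.0195). BTN2, a chaperone of protein sorting, rose by 0.70 (adjusted p = 0.0402). Of 28 heat shock chaperones 2 rose and 1 fell, where 2.3% and 1.8% of all genes did. CIN5, a bZIP transcription factor of salt stress also called YAP4, read 30.8, 45.9 and 40 on the 1.5 g/L arrays and 105.3, 109.8 and 88.4 on the 3 g/L arrays (log2 change 1.39 ± 0.20, adjusted p = 0.0016). GRE1, a hydrophilin induced by water stress, rose from 13.3, 18.8 and 13.7 to 28.7, 27.1 and 30.9 (log2 change 0.94 ± 0.18, adjusted p = 0.0119). CIN5 and GRE1 were the 2 that rose and GRE2 and TFS1 the 2 that fell of 35 genes of oxidative and general stress, against the same shares. GRE2, a methylglyoxal reductase, fell by 0.62 (adjusted p = 0.0356) and TFS1, an inhibitor of carboxypeptidase Y, by 0.58 (adjusted p = 0.0435). UBC7, of protein degradation at the endoplasmic reticulum, was the 1 called of 26 genes of the unfolded protein response (log2 change -0.59 ± 0.14, adjusted p = 0.0353), and PDI1, protein disulfide isomerase, did not pass (log2 change -0.42 ± 0.13, adjusted p = 0.09). HSP26 and CIN5 were called in all 6 fits without 1 array, GRE1 in 5 (up to 0.06, without 1.5 g/L replicate 3), HSP42 in 2 (up to 0.0864, without 1.5 g/L replicate 3), BTN2 in 0 (up to 0.119, without 1.5 g/L replicate 2), GRE2 in 1 (up to 0.134, without 1.5 g/L replicate 3), TFS1 in 0 (up to 0.134, without 1.5 g/L replicate 3) and UBC7 in 1 (up to 0.112, without 1.5 g/L replicate 3).

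**Figure D5:**
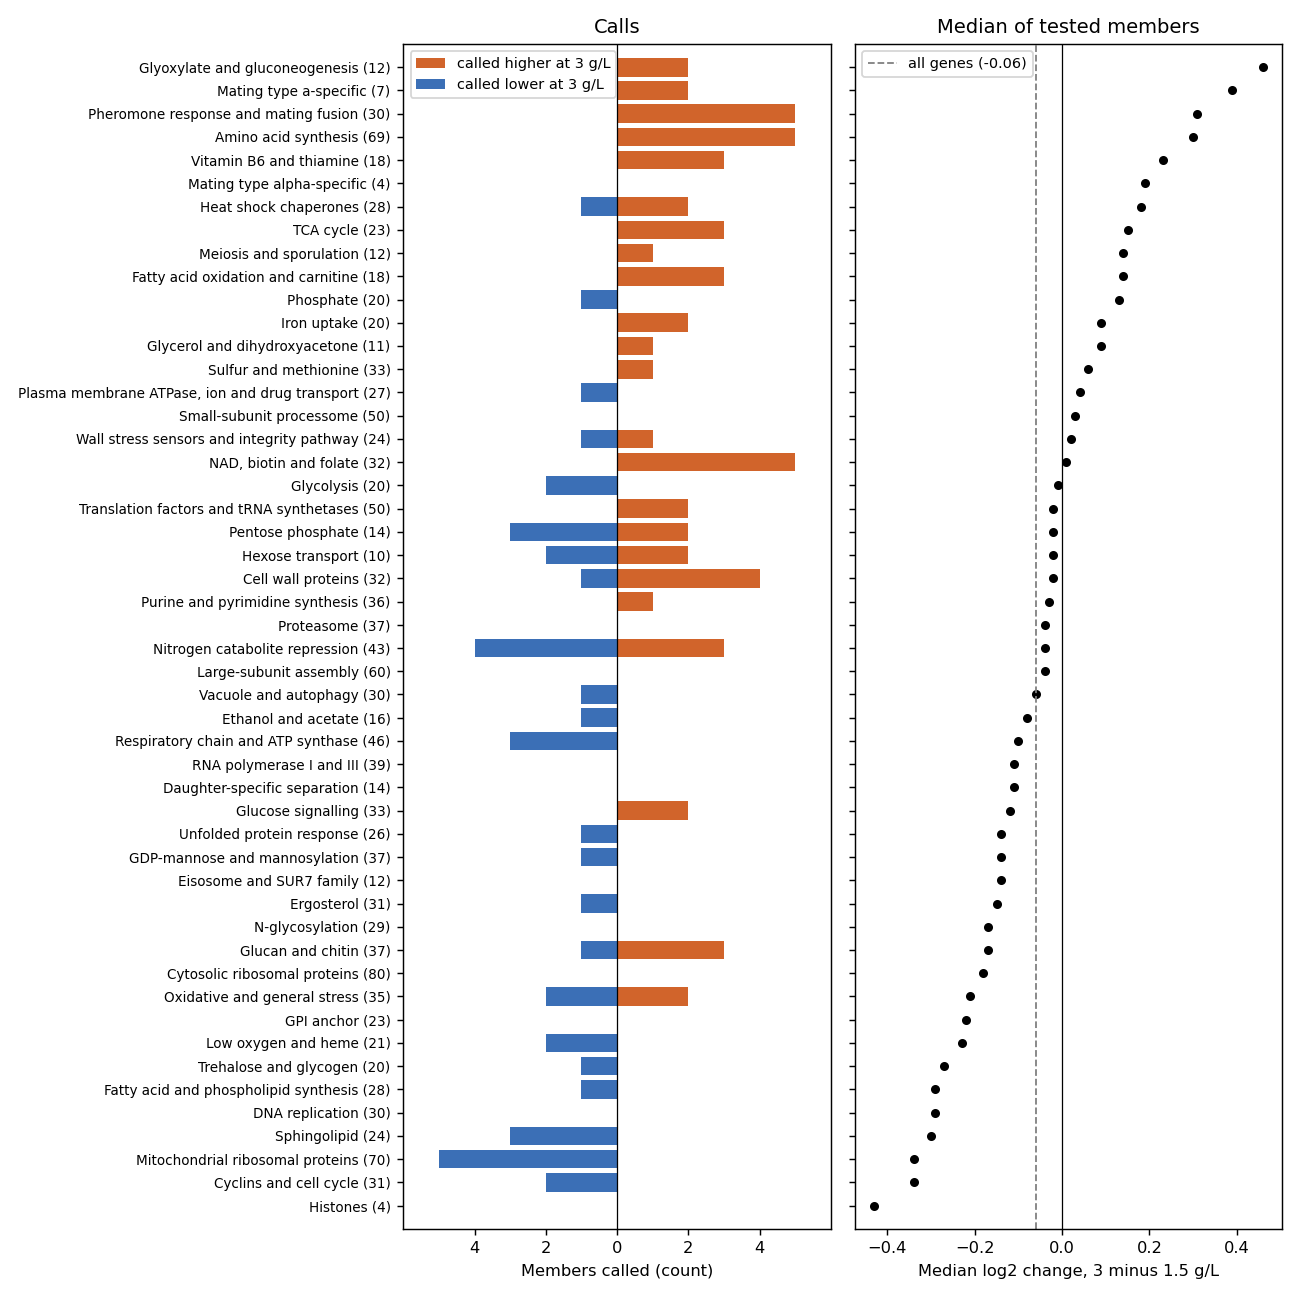
Bars on the left count the called members of each of the 50 gene lists, higher to the right and lower to the left, with the number tested in brackets, and points on the right give the median log2 change of the tested members beside the -0.06 of all genes. The glyoxylate, pheromone and amino acid lists have the medians farthest above 0 among lists with over 10 members, and the cyclins and mitochondrial ribosomal proteins those farthest below, although with a floor at background the glyoxylate median is 0.03, and with a floor at 32 the pheromone median is 0.01, while that of amino acid synthesis is 0.30 with both.

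Whether the change from 1.5 to 3 g/L differed from the steps beside it was tested per doubling of mannose in the same fit. Against the step from 1 to 1.5 g/L 1 probe set passed (0.0144%), that of SNZ1. Its log2 changes were 2.46 ± 0.14 from 1 to 1.5 g/L, 1.52 ± 0.14 from 1.5 to 3 g/L and -0.01 ± 0.14 from 3 to 5 g/L, and the difference per doubling, middle step minus the step below, was -2.69 ± 0.33 (adjusted p = 0.0073). The signals of SNZ1 at 0.75, 1, 1.5, 3 and 5 g/L were 106.3 ± 6.26, 103.6 ± 3.96, 572.9 ± 53.7, 1651.1 ± 214 and 1631.8 ± 71.6 (mean ± SD over 3 arrays). The call was lost in limma without 1.5 g/L replicate 1, without 1.5 g/L replicate 2 and without the incomplete records, with 452, 514 and 471 probe sets at an unadjusted p below 0.05 in these fits. Against the step from 3 to 5 g/L 10 probe sets passed (0.144%), and all 10 had the lower change per doubling in the middle step.

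Of these, 4 were also called between 1.5 and 3 g/L. CWP1 changed by 0.07 ± 0.14 from 1 to 1.5 g/L, -1.90 ± 0.14 from 1.5 to 3 g/L and 0.12 ± 0.14 from 3 to 5 g/L (adjusted p of the step difference = 0.0153), and its signals at the 5 concentrations were 1122.7 ± 90.1, 749.1 ± 7.34, 786.6 ± 40.5, 211.9 ± 24.4 and 230.0 ± 29. Between 1 and 5 g/L its fall lay in the step from 1.5 to 3 g/L. HSP26 changed by 0.04 ± 0.14 from 1 to 1.5 g/L, -0.94 ± 0.14 from 1.5 to 3 g/L and 0.67 ± 0.14 from 3 to 5 g/L (adjusted p = 0.0212), and SOL4 by -0.15 ± 0.14 from 1 to 1.5 g/L, -0.78 ± 0.14 from 1.5 to 3 g/L and 0.66 ± 0.14 from 3 to 5 g/L (adjusted p = 0.0387). Both had their lowest mean at 3 g/L. GRE1 changed by -0.08 ± 0.18 from 1 to 1.5 g/L, 0.94 ± 0.18 from 1.5 to 3 g/L and 3.18 ± 0.18 from 3 to 5 g/L (adjusted p = 0.00253), with signals of 93.9 ± 6.42, 16.1 ± 3.5, 15.3 ± 3.07, 28.9 ± 1.91 and 261.9 ± 31.6. The other genes were EGO4, ALD3, PAI3, CTR3 and SIP18, not called between 1.5 and 3 g/L and named after their values were seen, and 1 probe set with several symbols. Without 1 array 3 to 9 of the probe sets of the whole table passed (3 without 1.5 g/L replicate 1 and without 3 g/L replicate 2, 4 without 3 g/L replicate 3, 5 without 3 g/L replicate 1). None passed in limma with the run as a block or without the incomplete records, where 267 and 352 were at an unadjusted p below 0.05.

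The other genes in the plot of the 5 concentrations followed several courses. HXT1 had signals of 10.2 ± 2.6, 20.9 ± 6.92, 72.5 ± 8.62, 485.7 ± 130 and 698.3 ± 124 at 0.75, 1, 1.5, 3 and 5 g/L, and HXT7 of 1884.2 ± 67, 920.5 ± 152, 557.2 ± 56.1, 301.0 ± 36.7 and 242.3 ± 33.8. HXT1 was higher and HXT7 lower at each higher concentration. TKL2 had signals of 609.2 ± 225, 32 ± 3.05, 40.6 ± 9.45, 141.1 ± 34.5 and 391.5 ± 74.8, with its lowest means at 1 and 1.5 g/L. ICL1 had signals of 27.5 ± 4.7, 33.6 ± 10.1, 34.9 ± 9.92, 105.1 ± 21 and 293.0 ± 30.2, and HXK1 of 2473.6 ± 157, 821.5 ± 154, 425.4 ± 88.9, 188.4 ± 79.4 and 231.1 ± 24.4. The comparison of 5 with 1 g/L shares no array with that of 3 and 1.5 g/L, although it shares fluidics runs and the estimate of the spread. It called 1664 probe sets (23.9%). Of the 285 called between 3 and 1.5 g/L, 243 were called there in the same direction (85.3% of the 285 and 14.6% of the 1664) and none in the opposite direction, and 280 had the same sign.

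Probe sets without a single gene symbol made up 46 of the 178 rises, 41 with none and 5 with several, and 8 of the 107 falls, 6 with none and 2 with several. They were counted and not named. The retrotransposon gene YGR109W-B is covered by 22 tested probe sets, of which 8 rose and none fell, with log2 changes of -0.33 to 1.01 and a median of 0.69. Copies of such elements are near-identical, so these signals cannot be assigned to 1 copy. The genes COQ9, TEF4, UGA3 and ICS2 were called only by a probe set other than their brightest and are not in the gene counts.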

How the data were processed

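The deposited table holds 1 linear intensity value per probe set and array, per the file headers, with 9335 probe sets of the YG_S98 yeast array and 15 arrays. The sources used here do not state how the authors summarised and scaled the probes. Their 2% trimmed means were 100.1 on every array to 1 decimal, so the values were used as deposited. The array experiment records were read for stations, times of day, completion and sample codes, from which 4 fluidics runs were inferred.

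Signals below the 10th percentile (1.5), 13754 in all and 211 of them 0, were set to it and log2 transformed. The 60 control probe sets and the dimmest probe sets, with a mean log2 signal under the 25th percentile, were removed, leaving 6956 probe sets. The fit used limma 3.58.1 (lmFit, contrasts.fit, then eBayes; R 4.3.3) over the 15 arrays with 1 mean for each of the 5 concentrations, with Benjamini-Hochberg adjustment over the 6956 and a threshold of 0.05. Step differences are contrasts of the same fit, per doubling of mannose. Where every array of 1 group was at or below background, the fold is the brighter group's mean over 13.5 and a lower bound.

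Of all probe sets 6504 carried 1 symbol in the platform annotation, 328 several and 2443 none. The comparison, the 50 gene lists and the rule for named genes were chosen with earlier results of these data known. The rule took PMI40, the 15 largest rises and 15 largest falls among called genes whose arrays do not overlap and whose higher group exceeds background, up to 5 members of each list with the smallest adjusted p, and genes called both in a step difference and between 1.5 and 3 g/L.

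Same-numbered arrays of the 2 groups correlated in their deviations from the group means at -0.15, 0.093 and -0.029, and 4 of 30 such correlations in the series exceeded 0.1. Arrays with different numbers were not compared in this way. Whether the replicate numbers pair arrays is therefore not settled, and the fit left them unpaired. On simulated data of 6956 probe sets the code called 20 of the 67 with a true 1.5-fold difference between 3 and 1.5 g/L, 49 of the 67 with 2-fold and 65 of the 66 with 4-fold, with 4 false among 138 calls. The simulated noise was independent between arrays and held no run effect, and true differences were set only in brighter probe sets. These counts therefore check the code and do not give the error rate of the calls reported here. With 3 arrays per concentration, their number sets the precision. Probe-level files, growth rates and residual sugar were not used here, and promoter motifs were not analysed here.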

Additional observations from a re-analysis of the deposited data

How the results depend on the processing

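The count of 285 probe sets, 178 higher and 107 lower, was within 1.5 times with median scaling, a floor of 5, no filter, an intensity trend (388, 228 and 160), a robust variance and the run as a random block. The random block had an estimated correlation within runs of -0.00822, so it was nearly the fit without a block. Since runs mostly follow the concentrations, it cannot show whether the calls depend on the run. The settings that follow moved at least 1 of the 3 counts by more. The lower calls became 181 after quantile normalization, 178 with a floor of 32 and 177 with a filter at the median signal. A floor at background gave 472 with 236 lower, and array weights gave 658 with 362 higher and 296 lower. The replicate block gave 210, 141 higher and 69 lower, and whether the replicate numbers pair the arrays is not settled. Only the 6 arrays gave 97 (81 and 16), the fit without 0.75 g/L arrays 187 with 53 lower, and the fit without the incomplete records 91 (73 and 18). The run as a fixed block gave 3 (2 and 1), with 521 at an unadjusted p below 0.05, and in a version added after seeing the data that used only the runs of the 1.5 g/L arrays and of 3 g/L replicates 2 and 3, limma called 0, with 531 at an unadjusted p below 0.05. The cause of these differences was not tested. Leaving out 1 array gave 105 to 195 calls, 81 to 128 higher and 24 to 71 lower. Of 102 named called genes none changed direction in any of 23 settings, leaving aside 16 values where a floor covered all arrays. In settings that only left out arrays or changed the filter, floor or estimate of the spread, this was fixed in advance. The arrays of called genes do not overlap, so their direction could not change there. Of the 102, 63 stayed called without 3 g/L replicate 1, 42 without the incomplete records and 79 with the replicate block.

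Against the step below, the 1 call (lower) became 2 after quantile normalization (2 lower), 2 with a floor of 5 (1 higher), 6 with a floor at background (2 higher, 4 lower), 16 with a floor of 32 (10 and 6), 5 without a filter (5 lower), 4 with a filter at the median (4 lower) and 5 with an intensity trend (1 higher, 4 lower), and 0 without the incomplete records. Leaving out 1 array gave 0 to 3 calls, 0 to 2 higher and 0 to 1 lower. The fixed run block could not be fitted for this step, since 1 run held all 1 g/L arrays and no others. Against the step above, the 10 calls (all lower) became 15 with a floor of 5 (1 higher), 59 with a floor at background (12 and 47), 58 with a floor of 32 (12 and 46), 10 without a filter (1 higher), 21 with a filter at the median (2 and 19), 18 with an intensity trend (2 and 16), 121 with array weights (48 and 73), 4 with the replicate block (4 lower), 2 without the 0.75 g/L arrays (2 lower), and 0 with the run as a fixed block and without the incomplete records. Leaving out 1 array gave 3 to 9 calls, 0 to 1 higher and 3 to 9 lower. Signals near background limit what can be called, since 24 of the 178 rises and 6 of the 107 falls have 1 group wholly at or below it.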
